A study of Mus musculus with 2 samples.

Results

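The 9 genes described here encode parts of the complement system: the components C5 (gene Hc), C3 and C7, the 3 chains of C1q (C1qa, C1qb and C1qc), factor B (Cfb), and the receptors for the C3a and C5a fragments (C3ar1 and C5ar1). They were chosen by name, as 9 of the 32285 genes counted in 2 libraries of single nuclei from mouse fetal lung, and all 9 were found in both libraries. The libraries came from wild-type fetuses at day 18 of gestation. One library held the pooled lungs of 9 fetuses of a control mother (PBS), and the other those of 8 fetuses of an asthmatic mother (OVA). The PBS mother had received phosphate-buffered saline with alum and then intranasal saline, and the OVA mother had received ovalbumin, an egg-white protein used as a model allergen, with alum and then intranasal ovalbumin during pregnancy. The fetuses themselves were not treated. In both libraries, sorted group 2 innate lymphoid cells (ILC2s, CD45+ Lin- ST2+ cells), CD45+ immune cells and EpCAM+ epithelial cells had been mixed, and RNA and open chromatin were read from the same nuclei. With 1 library per group, each made from the litter of 1 dam, there was no replicate and no test, and a difference between PBS and OVA compares the 2 libraries rather than the conditions.

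Complement is a cascade of blood and tissue proteins that marks microbes and dying cells for removal. C1q starts the classical pathway, factor B belongs to the alternative pathway, and both lead to the cleavage of C3, the central component. Cleavage of C5 then starts the assembly of the membrane attack complex, of which C7 is a member, while the small fragments C3a and C5a act on receptors of leukocytes. The liver is the main source of most circulating components, whereas C1q comes largely from macrophages and other myeloid cells.

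Nuclei were assigned to types by panels of marker genes, none of which was one of the 9 complement genes, and types were grouped into 3 lineages. The epithelial lineage held 696 nuclei in PBS and 613 in OVA, mostly alveolar type 2 cells (AT2, the surfactant-making cells, 448 and 303 nuclei) and alveolar type 1 cells (AT1, the flat gas-exchange cells, 210 and 288). The stromal lineage held 1075 and 1421 nuclei, mostly fibroblasts (948 and 1236). The myeloid lineage held 198 and 408 nuclei, mostly macrophages (157 and 318). Nuclei were also clustered by their RNA. Giving each nucleus the main type of its cluster made 1279 and 1704 nuclei myeloid, of which 1149 and 1421 were macrophages. The gated macrophages were thus a small part of those nuclei, and macrophage levels below are those of gated nuclei unless stated. The sort did not select stromal cells, so the share of any type reflects the sort and the mixing. In AT2, AT1, fibroblast, pericyte, macrophage and ILC2 nuclei alike, the type's own panel had the highest summed level of the 6 panels in both libraries. The types were assigned with these same panels, so this is a description and not separate support for the type names. The macrophage panel, for example, summed to 3206 and 3407 counts per 1000000 (CPM, UMIs of a gene per 1000000 gene UMIs of the same nuclei) in macrophage nuclei, with 14 of 14 markers detected. In fibroblast nuclei it summed to 626 and 968 CPM, and in AT2, AT1, pericyte and ILC2 nuclei to between 59.4 and 232 CPM. Of the macrophage nuclei, 67.5% and 63.2% lay at the lower limit of the gate. The 2 libraries differed in quality: the median was 1116 gene UMIs per nucleus in PBS and 1820.5 in OVA, mitochondrial genes took 45.2% and 29.2% of the UMIs of all barcodes, and 54 barcodes occurred in both.

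Each lineage had its own complement genes. Hc was highest in epithelial nuclei, C7 was highest in stromal nuclei, and the other 7 genes were highest in myeloid nuclei, in both libraries. Over the 8377 genes with at least 100 UMIs, the share highest in 1 lineage in both libraries was 27.5% for epithelial, 30.5% for stromal and 18.6% for myeloid nuclei. C1qa, C1qb, C1qc, C3ar1 and Cfb did not meet that minimum, with 53, 27, 23, 31 and 8 UMIs over gated nuclei. The lead rested on few UMIs for several of the 7 genes. Counting intervals (95%, exact, covering counting error only) put the myeloid level above the next lineage in both libraries for C1qa, C1qb, C1qc and C5ar1, while for C3 and Cfb the interval of the ratio included equality in both libraries, and for C3ar1 in OVA. A level at least 10-fold above both other lineages in both libraries was found for Hc and C7, and for 7.64% of the 8377 genes. The plot of complement genes by cell type shows this division.

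**Figure D1:**
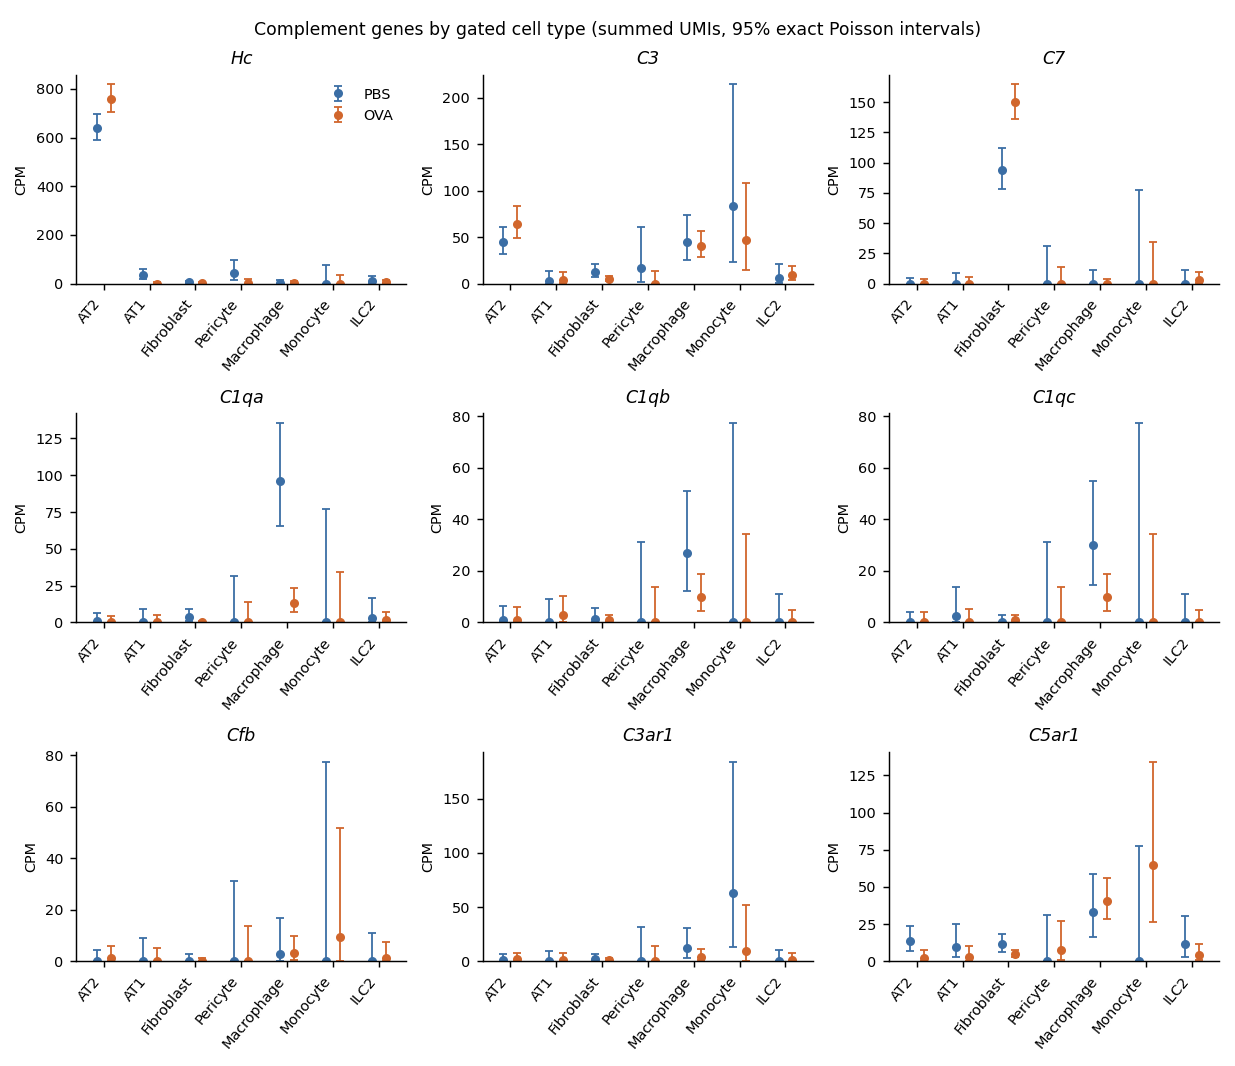
Level of each of the 9 complement genes (CPM, vertical axis, from 0) in 7 gated cell types of the PBS (blue) and OVA (orange) libraries; points are summed UMIs and bars their 95% exact Poisson intervals. Hc stands out in AT2 nuclei, at 640 and 760 CPM, and C7 in fibroblast nuclei, at 93.7 and 150 CPM, while the C1q genes are highest in macrophage nuclei.

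Hc (ENSMUSG00000026874, mm10 chromosome 2, 34983331 to 35061438, minus strand, 41 exons in its principal transcript) encodes C5, the source of the C5a fragment. In AT2 nuclei Hc had 562 UMIs in PBS, a level of 640 CPM (588 to 695), and 693 UMIs in OVA, a level of 760 CPM (704 to 818). It was thus the AT2 type that carried the gene within the epithelium. AT1 nuclei held 14 UMIs in PBS (34.6 CPM) and 0 in OVA. Over the epithelial lineage the level of Hc was 406 CPM in PBS and 384 in OVA. In stromal nuclei it was 7.33 and 2.98 CPM, which made the epithelial level 55.4-fold (30.7 to 112) higher in PBS and 129-fold (69.6 to 270) higher in OVA. A UMI of Hc was seen in 54.7% of AT2 nuclei in PBS and 67.7% in OVA (medians of 1399.5 and 2050 UMIs per nucleus). In ILC2 nuclei, taken as a type that should lack the gene, it was seen in 1.17% and 0.986% of nuclei (medians of 852 and 1265 UMIs). Drawing 500 nuclear-gene UMIs from every nucleus at random, which left out 92 and 25 shallower AT2 nuclei, gave AT2 shares of 36.8% (31.8 to 42.0) and 38.8% (33.1 to 44.9). The signal was spread over the AT2 nuclei rather than held by a few, since without the nucleus with most Hc UMIs, which had 18 in PBS and 33 in OVA, 96.8% and 95.2% of the UMIs were left. Gm13449, which was also counted, overlaps Hc.

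C3 (ENSMUSG00000024164, mm10 chromosome 17, 57203970 to 57228136, minus strand) was found in both epithelial and myeloid nuclei. In AT2 nuclei it had 39 UMIs in PBS (44.4 CPM, 31.6 to 60.7) and 59 in OVA (64.7 CPM, 49.2 to 83.4). In macrophage nuclei it had 15 UMIs in PBS (44.9 CPM, 25.1 to 74.1) and 37 in OVA (40.8 CPM, 28.7 to 56.2). Macrophage and AT2 nuclei did not differ beyond the counting interval in PBS, at a log2 ratio of macrophage to AT2 of 0.02 (-0.95 to 0.91), and AT2 nuclei were higher in OVA, at -0.66 (-1.30 to -0.05). AT1 nuclei had 1 UMI in PBS and 3 in OVA. AT2 nuclei thus held most of the epithelial C3, 39 of 44 UMIs in PBS and 59 of 65 in OVA. The rest lay in airway nuclei, which were too few to read a level (10 and 4 club, 28 and 18 ciliated). ILC2 nuclei held 5.89 and 9.27 CPM, which made AT2 nuclei 7.54-fold and 6.98-fold higher. Summed over lineages, the myeloid level of C3 was 48.2 and 47.3 CPM and the epithelial level 31.0 and 36.0, a ratio whose interval included equality (log2 0.64, -0.22 to 1.44, and 0.39, -0.17 to 0.95). In OVA 8 UMIs of C3 came from 24 neutrophil nuclei, a level of 382 CPM (165 to 753), whereas 9 neutrophil nuclei in PBS held 0 UMIs among 7878, too few to show such a level. Barcodes left out for having fewer than 200 genes also held C3, at 39.9 CPM in PBS and 48.6 in OVA, and their part in these levels was not tested.

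C7 (ENSMUSG00000079105, mm10 chromosome 15, 4988762 to 5063740, minus strand, 18 exons), which joins the membrane attack complex after C5 is cleaved, was a fibroblast gene in these nuclei. Fibroblast nuclei had 124 UMIs in PBS (93.7 CPM, 77.9 to 112) and 445 in OVA (150 CPM, 136 to 164). Epithelial and myeloid nuclei had 0 UMIs in both libraries. The stromal level was 82.7 CPM in PBS and 132.7 in OVA. Set against a floor of 3 UMIs in epithelial nuclei, these levels were 39.1-fold and 79.9-fold higher. The lower limit of the interval of the ratio was 31.3-fold in PBS and 64.8-fold in OVA. A UMI of C7 was found in 7.28% of fibroblast nuclei in PBS and 15% in OVA (medians of 1079.5 and 1975 UMIs), and in 0% and 0.197% of ILC2 nuclei. With 500 nuclear-gene UMIs drawn per nucleus, the fibroblast shares were 4.85% (3.38 to 6.71) and 6.05% (4.76 to 7.56), with intervals that overlapped. The share of nuclei with a UMI moved with depth, reaching 8.61% and 11.2% with 1000 UMIs drawn, and so does not give the share of fibroblasts that express C7. A single nucleus held up to 11 UMIs in PBS and 18 in OVA.

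C7 was also uneven among fibroblasts, as the plot across fibroblast clusters shows. In clusters 0 and 4, the largest clusters of fibroblast nuclei, C7 was detected at 107 and 116 CPM and at 173 and 196 CPM in PBS and OVA. In cluster 1 there were 0 and 2 UMIs of C7 and in cluster 11 there was 1 UMI in each library, although 118 and 86 nuclei of the former and 79 and 73 of the latter passed the same fibroblast gate. The clusters were made from variable genes with complement genes left out, so C7 played no part in making them. Its levels between clusters are given as a description. The OVA library was higher over all fibroblast nuclei, at a log2 ratio of 0.68 (0.39 to 0.98). Within cluster 0 the log2 ratio was 0.13 (-0.38 to 0.64) and within cluster 4 it was 0.18 (-0.24 to 0.63). Cluster 4, where C7 was higher, made up 112 of the fibroblast nuclei in PBS and 634 in OVA, and cluster 0 made up 605 and 425.

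**Figure D2:**
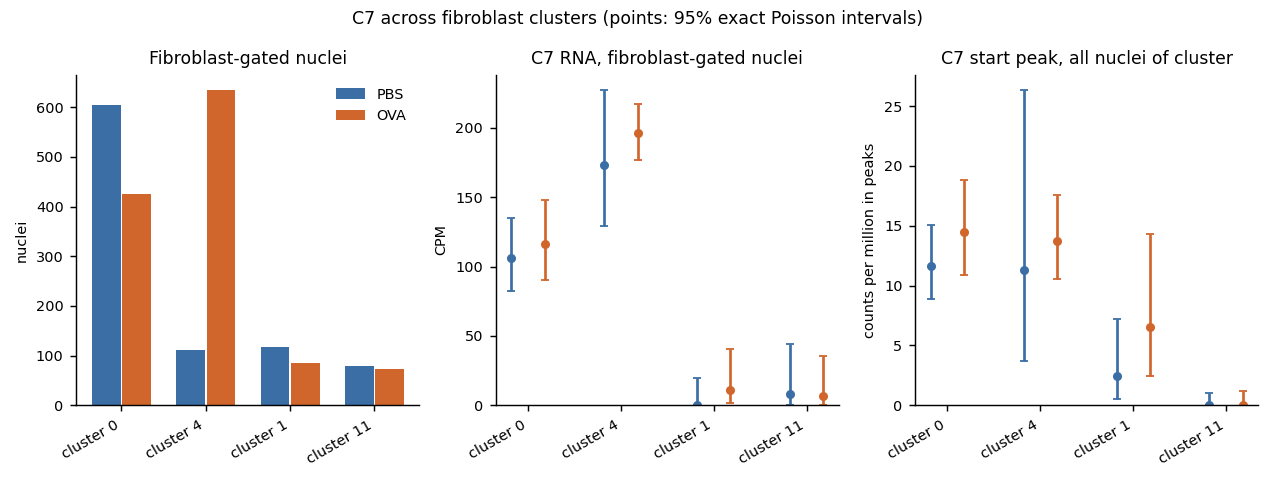
Fibroblast-gated nuclei (left, bars), C7 level in them (middle, CPM) and accessibility of the peak at the C7 start in all nuclei of the same clusters (right, peak CPM, counts per 1000000 counts in peaks), in PBS (blue) and OVA (orange), with 95% exact Poisson intervals on the points. Within clusters 0 and 4 the 2 libraries overlap in C7 level, at 107 and 116 and at 173 and 196 CPM, while the nuclei of cluster 4 number 112 in PBS and 634 in OVA.

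C1qa, C1qb and C1qc encode the 3 chains that together form C1q. They lie side by side on mm10 chromosome 4, all on the minus strand, with starts within 12616 bases of each other (C1qb 136880129 to 136886187, C1qc 136889804 to 136893065, C1qa 136895917 to 136898803), and each principal transcript has 3 exons. In macrophage nuclei C1qa had 32 UMIs in PBS (95.8 CPM) and 12 in OVA (13.2 CPM). C1qb had 9 UMIs in each library (26.9 and 9.93 CPM), and C1qc had 10 in PBS (29.9 CPM) and 9 in OVA (9.93 CPM). All 3 genes thus followed the same type. Monocyte nuclei, 28 in PBS and 54 in OVA, held none of the 3 genes.

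Within the macrophage gate the 3 genes divided further. Nuclei were split by markers of alveolar-type macrophages, which clear surfactant, and of interstitial-type macrophages, which lie in the tissue, and neither panel holds a complement gene. The 24 interstitial-type nuclei in PBS had 31 UMIs of C1qa (890 CPM), 8 of C1qb (230 CPM) and 9 of C1qc (258 CPM). The 45 in OVA had 12 of C1qa (113 CPM), 6 of C1qb and 6 of C1qc (56.7 CPM each). The 46 and 83 alveolar-type nuclei had 0 UMIs of all 3. Set against a floor of 3 UMIs in alveolar-type nuclei, interstitial-type nuclei were 34.7-fold higher in PBS and 9.88-fold higher in OVA for C1qa. For C1qb these values were 8.97-fold and 4.94-fold, and for C1qc 10.1-fold and 4.94-fold. The lower limit of the log2 ratio was 4.73 in PBS and 2.78 in OVA for C1qa. It was 2.52 and 1.54 for C1qb and 2.73 and 1.54 for C1qc. These 3 of the 9 genes were at least 2-fold higher in interstitial-type nuclei in both libraries, against 3.58% of the 2316 genes with at least 30 UMIs in the compared nuclei, a minimum that C1qa met and C1qb and C1qc did not.

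C3 and C5ar1, also found in macrophages, were not called so. C3 had 6 UMIs in alveolar-type nuclei and 0 in interstitial-type nuclei of PBS (51.2 and 0 CPM), and 10 and 2 in OVA (38.2 and 18.9 CPM), and C5ar1 had 1 and 1 in PBS and 10 and 8 in OVA. Intervals of these ratios included equality. C3ar1 had 3 and 1 UMIs in PBS, and 0 and 4 in OVA. In OVA the lower limit of its log2 ratio was 0.71, past equality but short of 2-fold. Clustering without the gate gave a group of 40 nuclei in PBS and 46 in OVA, cluster 15, led by Stab1, C1qa, Mrc1 and F13a1, and there at least 1 of the 3 C1q genes was seen in 70.0% and 60.9% of nuclei. No nucleus of the cluster had UMIs of all 3 genes, and 11 and 7 nuclei had UMIs of a pair. Complement genes were left out of the genes used for clustering, so C1qa played no part in making this cluster. Its level there, given as a description, was 1081 and 317 CPM. The plot among macrophage nuclei gives these levels.

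**Figure D3:**
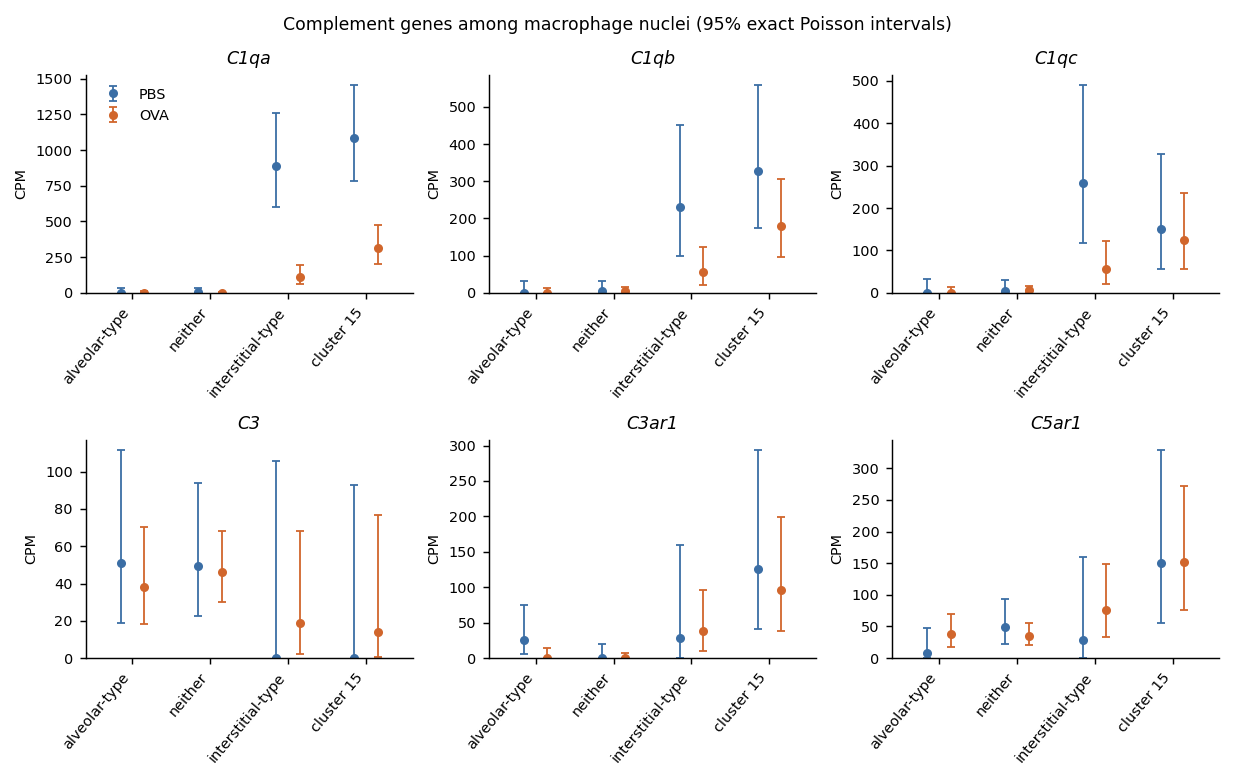
Levels (CPM, vertical axes from 0 and of differing range) of C1qa, C1qb, C1qc, C3, C3ar1 and C5ar1 in macrophage-gated nuclei of alveolar type, of neither type and of interstitial type, and in all nuclei of cluster 15, in PBS (blue) and OVA (orange), with 95% exact Poisson intervals. The C1q genes are at 0 in alveolar-type nuclei and highest in interstitial-type nuclei and cluster 15, and C1qa is higher in PBS (890 CPM) than in OVA (113 CPM) in interstitial-type nuclei.

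C5ar1 (ENSMUSG00000049130, chromosome 7, 16246743 to 16259540, minus strand), the receptor that binds C5a, was found in macrophage nuclei at 11 UMIs in PBS (32.9 CPM, 16.4 to 58.9) and 37 in OVA (40.8 CPM, 28.7 to 56.2). Monocyte nuclei had 0 UMIs in PBS and 7 in OVA (65.0 CPM, 26.1 to 134). The myeloid level was 27.9 CPM in PBS and 43.5 in OVA, 2.47-fold (1.04 to 5.67) and 9.11-fold (5.06 to 17.2) above the next lineage. The narrower margin in PBS came with 13.7 CPM in AT2 nuclei and 11.3 in fibroblast nuclei of that library, beside 11.8 CPM from 4 UMIs in its ILC2 nuclei. By UMIs rather than level, myeloid nuclei held 11 of the 42 C5ar1 UMIs of the 3 lineages in PBS (26.2%) and 46 of 67 in OVA (68.7%). Barcodes with fewer than 200 genes held C5ar1 at 27.1 and 53.9 CPM, and their part in these levels was not tested. C3ar1 (ENSMUSG00000040552, chromosome 6, 122847138 to 122856161, minus strand), the receptor for C3a, was sparse, with 4 UMIs in macrophage nuclei of each library (12.0 and 4.41 CPM). Its highest level in OVA was in mast cells or basophils, with 6 UMIs in 50 nuclei (71.4 CPM, 26.2 to 155), and 25 such nuclei in PBS held 1 UMI. In PBS monocytes had the highest level, with 3 UMIs in 28 nuclei (62.8 CPM, 13 to 184), against 1 UMI in OVA. Fibroblasts held 3 UMIs in each library. Cluster 15 had 5 and 7 UMIs of C3ar1 (126 and 96.6 CPM).

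Cfb (ENSMUSG00000090231, chromosome 17, 34856374 to 34862518, minus strand), which encodes the protease of the alternative pathway, was almost undetected as RNA. It had 8 UMIs over all gated nuclei, of which 1 in PBS and 3 in OVA were in macrophages (2.99 and 3.31 CPM). That is at or under the floor of 3 UMIs, and its order across types could not be read at this depth. Gm20547, which overlaps it, was not counted.

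Accessibility of the gene starts, a readout of the same nuclei that played no part in the choice of genes, followed the RNA when summed by lineage. Transposition counts in the peaks within 2 kb of each start were summed by lineage and given as peak CPM, the counts per 1000000 counts in peaks of the same nuclei, for each library on its own peaks. A nucleus with counts often held more than 1, as with 46 C7 counts in 23 stromal nuclei of PBS. Intervals on accessibility take each count as separate and so are too narrow. For all 9 genes the lineage with the highest RNA level also had the most accessible start in both libraries. The share was 39.9% of 8257 genes with a peak and at least 100 UMIs. C1qa, C1qb, C1qc, C3ar1 and Cfb did not meet that minimum. For Cfb in PBS this rested on 7 myeloid counts (3.66 peak CPM) against 19 epithelial counts (2.91 peak CPM), an interval that included equality, and on an RNA lead of 1 UMI. The count was 8 with a window of 10 kb, where the Cfb start in PBS was most accessible in epithelial nuclei, and 8 for peaks with their centre within 2 kb, where Hc had no peak. The plot of accessibility by lineage shows all 9 genes.

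**Figure D4:**
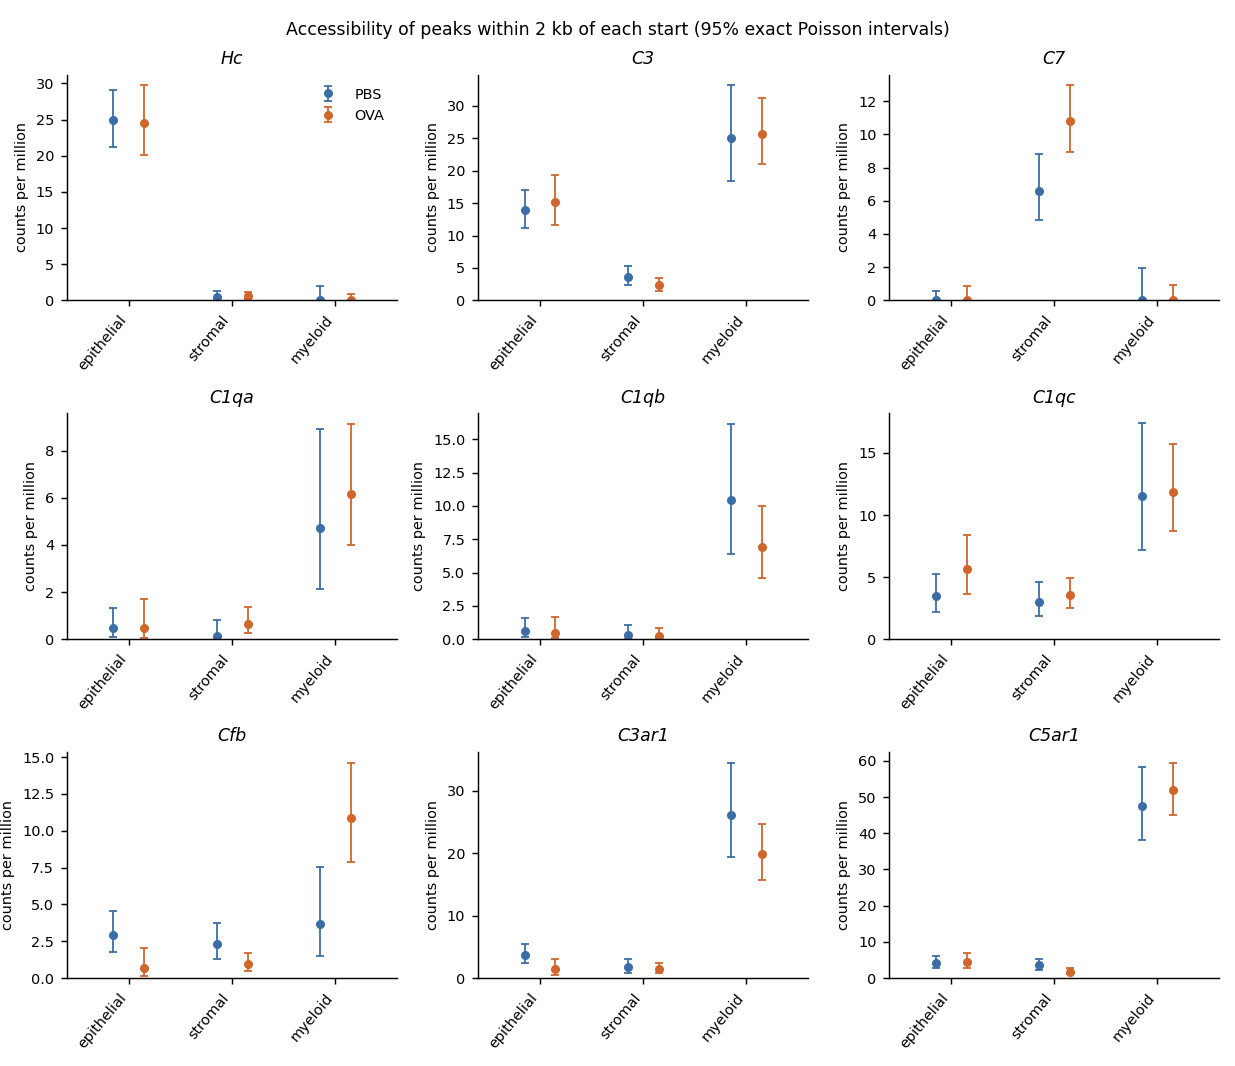
Accessibility of the peaks within 2 kb of the start of each of the 9 genes (peak CPM, vertical axes from 0) in epithelial, stromal and myeloid nuclei of PBS (blue) and OVA (orange), with 95% exact Poisson intervals. The Hc peak is open in epithelial nuclei (24.9 and 24.6 peak CPM), the C7 peak in stromal nuclei (6.59 and 10.8), and the C5ar1 peaks in myeloid nuclei (47.5 and 51.9).

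At Hc no peak spanned the start. The nearest peak lay upstream, with its centre at base -2190 from the start in PBS (chr2:35063104-35064153) and at -2195 in OVA (chr2:35063179-35064088). It held 163 and 104 counts in epithelial nuclei (24.9 and 24.6 peak CPM) and 3 and 6 in stromal nuclei, a 58.0-fold and 43.6-fold difference, and 0 in myeloid nuclei. Among epithelial types it was an AT2 peak, at 31.8 and 34 peak CPM in AT2 nuclei and 1.69 and 2.08 in AT1 nuclei. At C7 the peak at the start held 46 and 115 counts in stromal nuclei (6.59 and 10.8 peak CPM) and 0 in epithelial and myeloid nuclei of both libraries. By cluster it was at 11.7 and 14.5 peak CPM in cluster 0, 11.3 and 13.7 in cluster 4, 2.47 and 6.58 in cluster 1, and 0 in cluster 11. Clusters 1 and 11 both had little C7 RNA, but the start was without counts in cluster 11 alone. These values cover all nuclei of a cluster, and in cluster 11 only 152 of the 271 typed nuclei were fibroblasts. At C3 the start was 1.80-fold and 1.70-fold more accessible in myeloid (25.1 and 25.7 peak CPM) than in epithelial nuclei (13.9 and 15.1), with intervals of the log2 ratio of 0.31 to 1.37 and 0.30 to 1.24. For this gene the chromatin intervals, too narrow as given, lay past equality where the RNA interval included it. By type, the C3 start was at 25.3 and 25.7 peak CPM in macrophages and at 16.4 and 20.0 in AT2 nuclei. C3 RNA was instead higher in AT2 nuclei than in macrophages in OVA.

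The starts of the C1q genes were open in interstitial-type and almost closed in alveolar-type macrophages. C1qb was at 65.0 peak CPM in interstitial-type nuclei of PBS and 31.2 in those of OVA, and C1qc at 55.7 and 49.1, while both were at 0 in alveolar-type nuclei. C1qa was at 23.2 and 26.8 peak CPM in interstitial-type and 5.13 and 2.37 in alveolar-type nuclei. The C3ar1 start was open in macrophages (28.6 and 21.7 peak CPM) and in mast cells or basophils (28.9 and 25.8), 2 of the types in which its sparse RNA was seen, and lower in ILC2 nuclei (7.2 and 7.45) and fibroblasts (1.65 in both). In monocytes it was at 21.6 and 8.22 peak CPM. In macrophages it was at 27.8 and 58 peak CPM in interstitial-type and 15.4 and 9.47 in alveolar-type nuclei. C5ar1 was at 48.7 and 46.8 peak CPM in macrophages and 43.2 and 76.1 in monocytes. Other starts leaned to alveolar-type nuclei, from few counts. C3 was at 28.2 and 40.3 peak CPM in alveolar-type and 9.28 and 13.4 in interstitial-type nuclei. Cfb was at 12.8 and 21.3 against 0 and 8.93. C5ar1 was at 82.0 against 9.28 in PBS, and at 55.6 against 53.6 in OVA.

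The sequences just before the starts of 4 genes are shown because an open peak covered each of them in both libraries and because they stand for the AT2 and myeloid (C3), fibroblast (C7), interstitial-type macrophage (C1qc) and broader myeloid and mast cell (C3ar1) patterns. They are the 250 bases upstream of the RefSeq start on GRCm38.p6, all on the minus strand, for C3 at chr17:57228137-57228386, C7 at chr15:5063774-5064023, C1qc at chr4:136892915-136893164 and C3ar1 at chr6:122856158-122856407. Capitals mark matches to the motifs searched.
C3: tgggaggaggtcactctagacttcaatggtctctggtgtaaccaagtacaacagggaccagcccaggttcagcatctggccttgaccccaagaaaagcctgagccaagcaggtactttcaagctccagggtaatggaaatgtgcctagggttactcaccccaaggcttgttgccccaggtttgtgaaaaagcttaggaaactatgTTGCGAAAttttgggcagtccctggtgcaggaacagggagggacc
C7: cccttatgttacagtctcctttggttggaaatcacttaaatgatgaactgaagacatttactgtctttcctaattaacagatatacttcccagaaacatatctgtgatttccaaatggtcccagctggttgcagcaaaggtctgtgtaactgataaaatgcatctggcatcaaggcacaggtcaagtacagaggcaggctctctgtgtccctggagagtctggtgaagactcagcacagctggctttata
C1qc: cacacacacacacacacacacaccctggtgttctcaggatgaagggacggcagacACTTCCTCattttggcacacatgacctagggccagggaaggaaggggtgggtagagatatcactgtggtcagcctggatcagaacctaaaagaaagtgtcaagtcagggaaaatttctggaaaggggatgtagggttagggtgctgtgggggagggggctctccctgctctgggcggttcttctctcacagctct
C3ar1: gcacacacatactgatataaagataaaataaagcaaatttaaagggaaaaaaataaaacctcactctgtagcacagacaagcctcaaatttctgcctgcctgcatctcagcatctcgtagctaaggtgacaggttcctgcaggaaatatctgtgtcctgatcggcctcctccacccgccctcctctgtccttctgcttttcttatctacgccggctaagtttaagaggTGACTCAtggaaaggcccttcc

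RefSeq promoters were at hand for 7 of the 9 genes (not C1qa and Cfb). On both strands they were searched for GAGGAAGT (PU.1), TTGCNNAA (C/EBP), CACTTGA (NKX2-1) and TGANTCA (AP-1), and for one NF-kB and one IRF motif of 10 letters each, of which none overlapped another in these matches. C3 held the C/EBP letters TTGCGAAA from position -45 on its own strand, which 9.57% of all 32536 promoters of this length hold in some form. C1qc held the PU.1 letters as ACTTCCTC from -195, on the opposite strand, against 2.45% of promoters. C3ar1 held the AP-1 letters TGACTCA from -22, against 6.73%. Hc, C7, C1qb and C5ar1 held no match in this window, and C7, whose start had 0 counts in epithelial and myeloid nuclei, had none of the 6 motifs. A match describes letters, not binding.

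Between the libraries, each gene was compared in the type where it was highest over both libraries summed, among the 6 types with at least 50 nuclei in each library, as drawn in the plot of OVA over PBS. Smaller types such as monocytes, neutrophils and mast cells or basophils, in which C3, C3ar1 and C5ar1 reached higher levels in at least 1 library, were not used for this. C1qa and C1qc, 2 of the 9 genes, were at least 2-fold apart with an interval that left out equality, both lower in OVA. Among all genes with at least 100 UMIs in the type, 9.3% were so in either direction in macrophage nuclei, where 1.22% were lower, 5.63% in AT2 nuclei and 1.94% in fibroblast nuclei. C1qa and C1qc had 44 and 19 UMIs in macrophage nuclei and so lay below that minimum. In macrophage nuclei, 1.73% of genes were lower at a minimum of 30 UMIs, and 4.5% at 100 UMIs on nuclear-gene UMIs alone. In macrophage nuclei the log2 ratio of OVA to PBS was -2.86 (-3.95 to -1.86) for C1qa and -1.59 (-3.07 to -0.14) for C1qc, and for C1qb it was -1.44 (-2.95 to 0.07). The macrophage gate held 24 interstitial-type of 157 nuclei in PBS and 45 of 318 in OVA, and within the interstitial-type nuclei the log2 ratio was -2.97 (-4.07 to -1.97) for C1qa, -2.02 (-3.82 to -0.30) for C1qb and -2.19 (-3.96 to -0.53) for C1qc. In cluster 15, defined without the gate, it was -1.77 (-2.57 to -1.01) for C1qa, -0.87 (-2.09 to 0.36) for C1qb and -0.28 (-1.93 to 1.49) for C1qc. C1qa was lower in OVA in these 3 choices of nuclei, which overlap and are not separate support. Interstitial-type nuclei held 31 of the 32 C1qa UMIs of the macrophage gate in PBS and all 12 in OVA. Of the 45 gated nuclei of cluster 15, 44 were macrophages. C1qb and C1qc were not past equality in the cluster. Interstitial-type nuclei had a median of 1031.5 UMIs in PBS and 2225 in OVA. At the lower limit of the subset split lay 5 of these 24 nuclei in PBS and 23 of these 45 in OVA. The part of depth and of this limit in the ratios was not tested.

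Accessibility did not show the same difference. In macrophage nuclei the log2 ratio of OVA to PBS at the start was 0.18 (-0.99 to 1.49) for C1qa, -0.69 (-1.63 to 0.28) for C1qb and 0.29 (-0.57 to 1.22) for C1qc, and these intervals are wide. For Cfb the start held 7 counts in 4 macrophage nuclei of PBS (4.55 peak CPM) and 44 counts in 22 of OVA (13.3 peak CPM). The log2 ratio was 1.55 (0.38 to 2.94), with each count taken as separate. That interval is too narrow, so a difference past counting error could not be read. The RNA of Cfb was too sparse to compare. Among 7511 genes with at least 30 counts in macrophages, 1.89% were 2-fold apart either way at the start. The peaks were called in each library, and that of Cfb was 832 bases wide in PBS and 919 in OVA.

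Of the other genes, C3ar1 in macrophages was at -1.44 (-3.87 to 0.98) from 4 UMIs in each library, so that neither a difference nor its absence could be read, and Cfb was too sparse to compare. Hc in AT2 nuclei had a log2 ratio of 0.25 (0.08 to 0.41), but the median gene in AT2 nuclei was itself 0.38 higher in OVA, and on nuclear-gene UMIs alone (leaving out mitochondrial UMIs) Hc was at -0.01 (-0.17 to 0.16), so its direction depended on the scaling. C3 in AT2 nuclei was at 0.54 (-0.07 to 1.16). C7 in fibroblast nuclei was at 0.68 (0.39 to 0.98) against a median gene at 0.25. Its start was at 7.61 peak CPM in PBS and 12.7 in OVA (log2 0.73, 0.23 to 1.26, with each count taken as separate). C5ar1 in macrophages was at 0.31 (-0.69 to 1.43) against a median gene at 0.47. With macrophages taken by cluster class it was at -0.44 (-0.81 to -0.06), so its direction depended on how macrophages were chosen.

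**Figure D5:**
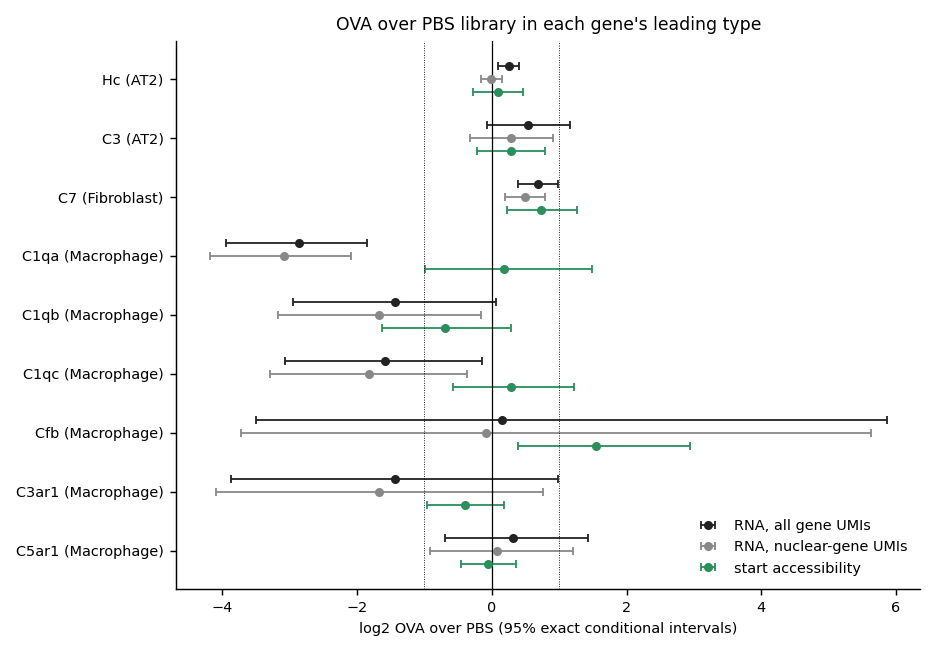
Log2 ratio of the OVA to the PBS library (horizontal axis) for each gene in its leading type, from RNA over all gene UMIs (black), RNA over nuclear-gene UMIs (grey) and accessibility of the start (green), with 95% exact conditional intervals and dotted lines at 2-fold. C1qa RNA lies far to the left (-2.86) while its accessibility does not (0.18), and C7 RNA (0.68) and accessibility (0.73) lie side by side.

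Levels outside the leading types differed too, in 6 pairs of gene and type past the same rule, and each was lower in OVA. Of all genes with at least 100 UMIs, 0.28% were so in AT2 nuclei, 0.115% in AT1 nuclei, 0.274% in fibroblasts and 0.781% in pericytes. At a minimum of 30 UMIs these shares were 1.16%, 1.5%, 1.27% and 0.853%, and of the 6 pairs C3 in fibroblasts alone reached that minimum, with 32 UMIs. These were C5ar1 in AT2 nuclei (13.7 and 2.19 CPM) and fibroblasts (11.3 and 4.72 CPM), C3 in fibroblasts (12.8 and 5.05 CPM), C1qa in fibroblasts (5 and 0 UMIs), and Hc in AT1 nuclei (14 and 0 UMIs) and pericytes (5 and 1 UMIs). All of them were low levels of genes that another type held at a higher level in the same library. Barcodes with fewer than 200 genes numbered 1919 in PBS and 454 in OVA.

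Other complement genes came from a list of 46, of which 12 had at least 100 UMIs and 5 had none. Of the 12, 2 were highest in epithelial nuclei in both libraries, and these were C6, like C7 a part of the membrane attack complex (72.9 and 125 CPM in AT2 nuclei), and the surface regulator Cd55 (46.7 and 124 CPM in AT2 nuclei). C6 thus lay with Hc rather than with C7. Another 4 were highest in stromal nuclei, among them the inhibitor Serping1 (202 and 223 CPM in fibroblasts) and the collectin Colec12 (431 and 578 CPM). The 3 highest in myeloid nuclei were properdin, Cfp (38.9 and 32.0 CPM in macrophages), and the receptor chains Itgam (53.9 and 50.7 CPM) and Itgb2 (92.8 and 84.9 CPM).

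As a description, each gene's profile of log2(CPM + 10) was correlated across 12 points (6 types in 2 libraries, which share libraries and depth) with genes of at least 100 UMIs. The genes most like Hc were Arhgef38, Scd1 and Retnla (Pearson r of 0.988, 0.981 and 0.980), those most like C7 were Sema3d, Upk1b and Gm16263 (0.994, 0.993 and 0.993), and those most like C3 were Lyz2, Mitf and Glrx (0.912, 0.902 and 0.898). For C5ar1 they were Ccr1, Olr1 and Itgam (0.948, 0.944 and 0.941). Atp6v0d2 was the most like all 3 C1q genes (0.933 for C1qa, 0.963 for C1qb and 0.970 for C1qc). Atp6v0d2 marks alveolar-type macrophages, in which the C1q genes were at 0, so likeness across whole types did not carry over to the subsets of 1 type. For C3ar1 the most like gene was Fcgr3 (0.937) and for Cfb Nlrp3 (0.972), from 31 and 8 UMIs.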

How the data were processed

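The authors made 10x Multiome libraries from sorted and mixed cells, and deposited raw UMI counts per gene and raw transposition counts per peak for the barcodes called by Cell Ranger ARC 2.0.1 on mm10, per the file headers and the submitters' processing notes. The PBS library had 8019 barcodes, 11473351 gene UMIs and 66520943 transposition counts, and the OVA library 5960, 13774959 and 51197323. Peaks had been called in each library on its own. No column was left unused (0).

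Barcodes under 200 genes or over 60% mitochondrial UMIs were dropped, and a score of likeness to simulated doublets (2 per nucleus, an expected 0.8% doublets per 1000 barcodes) removed 293 in PBS (6.41%) and 250 in OVA (4.77%), leaving 4279 and 4996 nuclei. A nucleus was given a type when at least 3 markers of 1 of 21 panels had UMIs and led the next panel by at least 2, which typed 2345 and 3040 nuclei. Cells were also clustered (Leiden, resolution 1, 3000 variable genes with mitochondrial and complement genes left out, 30 components, 15 neighbours). The cluster's class was that of the nucleus for 92.1% and 93.3% of typed nuclei. UMIs were summed per type and library, and counts at starts likewise. Levels have exact Poisson, shares exact Clopper-Pearson and ratios exact conditional binomial intervals (95%), for counting error only. Those on accessibility take each count of a nucleus as separate and are too narrow. A floor is 3 counts. With 1 library per group no p-value was computed.

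All 9 genes are named, other complement genes from a fixed list if they had at least 100 UMIs, and the 3 genes most like each. The genes, lists and markers were chosen with earlier results of these data known. On simulated fibroblast counts (5111 genes), the ratio rule called 58 of 58 genes set 4 times lower (log2 of -2), 42 of 44 at -1.5, 50 of 50 at 1.5, 48 of 48 at 2 and 0 of 4911 left alone. The simulation drew Poisson counts for genes with at least 100 UMIs. It does not cover sparser genes such as C1qa and C1qc in macrophage nuclei. Gene positions are from GENCODE M21 and promoters from RefSeq. Alternatives changed the denominator, gate, filters, doublets, depth, centring and peak rule. Python 3.11.15 was used with numpy 2.4.6, scipy 1.17.1, pandas 2.3.3, scanpy 1.11.5, scikit-learn 1.9.0, igraph 0.11.9 and matplotlib 3.10.9.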

Additional observations from a re-analysis of the deposited data

Results flagged for a closer look

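Hc had ratios between the libraries that differed among types. In AT2 nuclei its log2 ratio of OVA to PBS was 0.25, in pericytes it was -3.50 from 5 UMIs in PBS and 1 in OVA, and AT1 nuclei held 14 UMIs in PBS and 0 in OVA. Of the 5 pericyte UMIs in PBS, 4 were in 1 nucleus, and the 14 in AT1 nuclei came from 8 nuclei, with up to 6 in 1. The AT2 marker panel, summed in the same nuclei, was at 1642 CPM in PBS and 644 in OVA in pericytes, and at 2612 and 1732 in AT1 nuclei, and its part in the Hc values was not tested. The difference between types was not tested.

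Barcodes with fewer than 200 genes, which entered no comparison, held UMIs of several complement genes above the 3 that a count of 0 allows. In PBS these were 9 of Hc, 31 of C3, 5 of C7, 4 of C1qa, 4 of C1qb and 21 of C5ar1 in 1919 barcodes, and in OVA 9 of C3 and 10 of C5ar1 in 454 barcodes. C5ar1 stood there at 27.1 CPM in PBS and 53.9 in OVA, near its level in macrophage nuclei, while Hc stood at 11.6 and 10.8, far below its level in AT2 nuclei.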

How the results depend on the processing

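The count of genes led by myeloid nuclei was 7 and went to 2 with at most 20% mitochondrial UMIs, where 5 myeloid nuclei were left in PBS and 33 in OVA. It was 6 with the looser gate, the stricter gate and thinning. The count of genes at least 2-fold apart was 2, and it was 1 with the stricter gate, with at most 20% mitochondrial UMIs and with the joint filter on UMIs and transposition counts per nucleus. It was 3, C1qb included, with nuclear-gene UMIs, the looser gate, the mean of single nuclei, centring and without barcodes of both libraries. C1qc was not called with the stricter gate, the 20% limit or the joint filter, nor by cluster class or after thinning. By cluster class and after thinning the count stayed at 2 because C1qb took its place. With the 20% limit the gene called was C7. The count at least 2-fold higher in interstitial-type macrophages was 3, and it was 1 with the joint filter, which left 10 such nuclei in PBS, 0 with at most 20% mitochondrial UMIs, which left 1 of each subset in PBS, and 0 after thinning. It was 4 by cluster class and 2 with the stricter gate. The C1qc ratio of OVA to PBS turned to 1.61 (-1.24 to 7.07) with the joint filter. The cause of the changes after thinning and in the C1qc ratio was not tested.

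Of single values, 101 stayed within their interval, 19 moved, 1 reversed and 1 count of all genes grew, to 4.4% of genes called in fibroblasts at a minimum of 30 UMIs. The log2 ratio of C1qa was -1.83 by cluster class, -4.40 after thinning and -0.33 (-2.72 to 2.97) with at most 20% mitochondrial UMIs, and that of C7 was 1.27 (0.68 to 1.92) with that limit. That of Hc ranged from -0.15 with that limit to 0.43 with the joint filter. That of C5ar1 in macrophages was -0.44 (-0.81 to -0.06) by cluster class, opposite in sign to the gated nuclei. Leaving out barcodes seen in both libraries, and analysing C7 by cluster and C1q by subset and cluster, were chosen after seeing the data. No paired analysis was possible because PBS and OVA were 1 library apiece, and no library could be left out for the same reason. Depth limits Cfb, C3ar1 and the monocyte and neutrophil values most.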
